A study of Homo sapiens with 2 samples.

Results

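The peaks described here are the 1042 inflachromene-only peaks of a chromatin immunoprecipitation from the human cell line Panc1. They were chosen by overlap: a peak was a member when it lay on chromosomes 1 to 22 or X, came from the inflachromene-treated cells, and shared not 1 base with any peak called in DMSO-treated cells. Of 10836 inflachromene peaks on these chromosomes, 1042 (9.62%, 95% interval 9.07 to 10.2) met this rule and 9794 overlapped a DMSO peak. The count depended on the rule: it was 2210 when the DMSO list was shortened to as many peaks as the inflachromene list, and 1910 when an overlap of 50% of both peaks was asked for. The opposite class, DMSO peaks without an overlapping inflachromene peak, held 5390 of 15186 peaks, and both lists together held 26022.

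The series holds 2 ChIPmentation libraries, 1 from cells given DMSO, a solvent, and 1 from cells given Inflachromene, a compound whose known targets are the chromatin proteins HMGB1 and HMGB2. Panc1 is an established epithelial line from a human pancreatic ductal adenocarcinoma, and no genetic change to it is labelled in either sample. Proteins were crosslinked to DNA with 15 mM EGS, a long-armed crosslinker, for 30 min and with 1% formaldehyde for 10 min before 125 mM glycine stopped the reaction. The sources used here name neither the antibody's target nor the dose or length of the inflachromene treatment. Each treatment had 1 sample, so the comparisons have no replicate check, describe these 2 libraries and not the conditions, and carry no test. All intervals are 95% and cover counting error only.

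In ChIPmentation a transposase cuts immunoprecipitated chromatin and adds sequencing adapters in the same step, and a peak is a stretch where fragments pile up above the local background. Active promoters in human cells are commonly rich in GC and CpG and hold short binding sites for widely expressed factors, among them SP/KLF, ETS, NRF1 and NF-Y proteins. Peaks called near the caller's limit can pass it in 1 library and miss it in another, so a peak found in 1 list alone does not show that the position was empty in the other.

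Promoter sequences under strong members are printed so that their letters stand beside their values. Of the 12 members of highest fold enrichment at gene ends, 5 are shown, each as the bases upstream of the annotated start that the peak covers, 5′ to 3′ on the gene's strand, from RefSeq (GRCh38.p14). Capitals mark matches, on either strand, to any of 11 short motifs: here ETS (CCGGAAG), SP/KLF (GGGCGG), NRF1 and NF-Y (CCAAT). The stretches are POLR2C, chr16:57462549-57462678, plus strand; EDEM2, chr20:35147337-35147473, minus strand; ZNF134, chr19:57614138-57614241, plus strand; UBE2K, chr4:39697896-39698135, plus strand; and FGF22, chr19:639637-639878, plus strand.
POLR2C: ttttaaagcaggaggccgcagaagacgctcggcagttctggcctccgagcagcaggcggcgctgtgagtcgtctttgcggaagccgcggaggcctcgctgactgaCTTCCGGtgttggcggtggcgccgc
EDEM2: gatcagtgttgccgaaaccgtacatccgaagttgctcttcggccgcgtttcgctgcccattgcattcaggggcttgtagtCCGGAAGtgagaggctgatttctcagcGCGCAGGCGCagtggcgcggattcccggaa
ZNF134: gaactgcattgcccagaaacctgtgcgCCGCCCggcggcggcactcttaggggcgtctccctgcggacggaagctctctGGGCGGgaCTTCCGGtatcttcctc
UBE2K: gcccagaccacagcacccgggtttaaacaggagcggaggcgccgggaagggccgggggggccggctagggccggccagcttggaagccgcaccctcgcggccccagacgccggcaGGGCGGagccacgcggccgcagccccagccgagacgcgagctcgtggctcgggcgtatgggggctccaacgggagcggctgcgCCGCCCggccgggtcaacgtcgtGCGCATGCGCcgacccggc
FGF22: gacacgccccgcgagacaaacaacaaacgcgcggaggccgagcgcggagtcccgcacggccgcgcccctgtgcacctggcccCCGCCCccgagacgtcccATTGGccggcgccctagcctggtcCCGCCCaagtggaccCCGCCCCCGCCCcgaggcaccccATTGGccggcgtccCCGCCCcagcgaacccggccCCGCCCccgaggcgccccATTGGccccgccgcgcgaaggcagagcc

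These 5 were chosen among the strongest and not for being typical: the stretch at SDAD1, not shown, was 51.3% G or C with 7 CpG pairs and held no match. The 5 stretches were between 59.1% (EDEM2) and 78.5% (FGF22) G or C and held from 10 (ZNF134) to 34 (UBE2K and FGF22) CpG pairs. An ETS match began 25 bases before the POLR2C start, 57 before the EDEM2 start and 17 before the ZNF134 start. NRF1 matches began 30 bases before the EDEM2 start and 19 before that of UBE2K. The FGF22 stretch held 6 SP/KLF and 3 NF-Y matches. A match describes the letters and does not show that a factor was bound.

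The members were low and narrow. Peak strength is the deposited fold enrichment, and width is the called length. Fold enrichment is the ratio of fragments at the summit to the local background, with the same small constant added to both. On a low background it is therefore well below the plain ratio. Because the rule used the call itself, strength and width are given as a description. The members' median fold enrichment was 5.83 (interval of the median 5.73 to 5.93, range 2.28 to 12.8), against 8.0 for inflachromene peaks that overlapped a DMSO peak and 6.36 for DMSO-only peaks. The number of fragments over the summit, called the pileup, was worked out from the deposited fold enrichment and p-value. Its median was 15 (range 7 to 47) in members, 24 in shared inflachromene peaks and 16 in DMSO-only peaks. The DMSO list was stronger among shared peaks too, with medians of 9.31-fold and 30 fragments. Members and DMSO-only peaks come from different lists, so their strengths are not directly comparable. The median width was 207 bp (204 to 212, range 165 to 606) in members, 323 bp in shared peaks and 213 bp in DMSO-only peaks. The narrowest peak was 165 bp in the inflachromene list and 152 bp in the DMSO list. Widths, and shares under a fixed width, are therefore not directly comparable between the lists either. The members made up 9.62% of the peaks and 6.31% of the bases that inflachromene peaks covered.

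**Figure D1:**
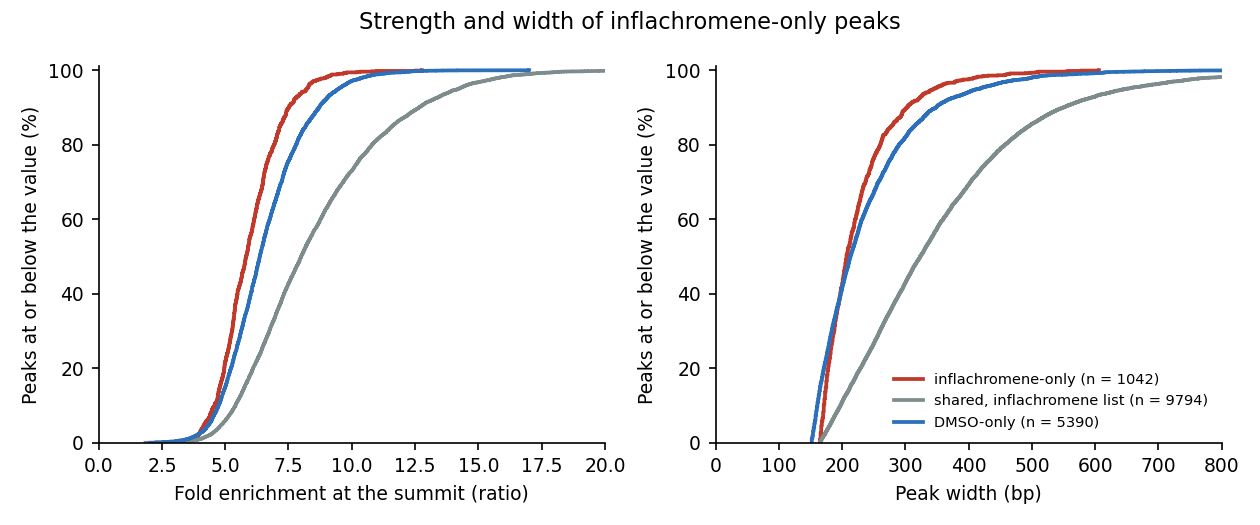
Share of peaks (percent) at or below each fold enrichment (left) and each width in bp (right), as 1 cumulative curve for inflachromene-only, shared inflachromene and DMSO-only peaks. The members' curve crosses the middle at 5.83-fold, left of both others, and at 207 bp, close to the 213 bp of DMSO-only peaks and below the 323 bp of shared peaks. The DMSO list, from which the DMSO-only curve comes, also had stronger shared peaks (median 9.31-fold, not drawn).

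Few members reached the height that was common among shared peaks. A pileup of 20 or more was found in 181 members (17.4%, 15.1 to 19.8), in 68.7% of shared inflachromene peaks and in 30.7% of DMSO-only peaks. A fold enrichment of 8 or more was found in 65 members (6.24%), in 50.1% of shared peaks and in 17.0% of DMSO-only peaks. Shared peaks as called in the DMSO list reached these limits in 80.9% and 66.0% of cases. Widths of 400 bp or more were found in 26 members (2.5%) and in 30.8% of shared peaks. The narrow width was also seen at equal pileup, with the local background not matched. Among peaks with 20 to 24 fragments, 34 of 135 members (25.2%) were under 200 bp wide, against 10.2% of shared and 32.2% of DMSO-only peaks. With 30 to 34 fragments the share was 6 of 12 members (21.1% to 78.9%), against 1.51% of shared and 21.6% of DMSO-only peaks. Of the 18 members with 30 or more fragments, 15 had a local background of 5 or more. The median background of all shared inflachromene peaks was 2.15, so width at equal height above background was not compared.

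**Figure D2:**
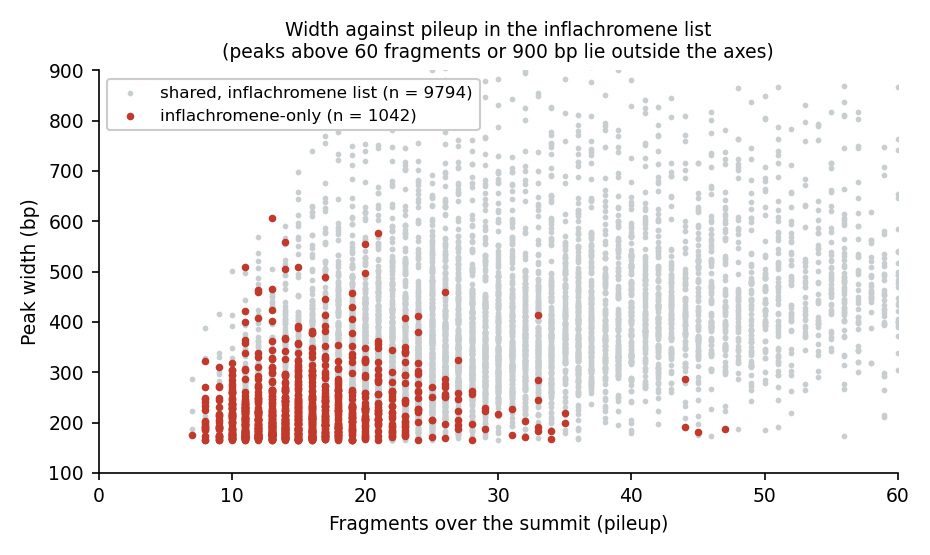
Peak width in bp against the number of fragments over the summit for each inflachromene peak, members (n = 1042) in front of shared peaks (n = 9794), with the tallest and widest shared peaks outside the axes. Members fill the lower left corner, and at 20 to 24 fragments their median width was 226 bp against 290 bp in shared peaks.

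Many members stood close to the calling limit. On its own background, a median member needed 10 fragments to be called, and its pileup was a median of 4 fragments above that need. In 273 members (26.2%) the pileup was at most 2 fragments above it, and in 68 it was 10 or more above. The fragments that a DMSO summit would have needed at the same place were estimated from the lowest p-value in the DMSO list and the inflachromene background scaled to the DMSO library, which assumes an equal background and leaves out the caller's minimum width. By this estimate 61 members (5.85%) had 2 or more times the fragments needed in DMSO. The DMSO list gives no pileup at these places, so a difference in fragments between the libraries was not measured there.

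The members nearest the rule's limit were set beside the peaks just past it. Just inside were peaks at the ends of DIS3L2 and SPIRE2, both 1 bp from a DMSO peak, with 12 and 11 fragments beside DMSO neighbours of 10 and 15. Just outside were peaks at RHOV, with an overlap of 1 bp and 20 fragments against 18 in the DMSO peak, and at UBE2Q2, with an overlap of 3 bp and 16 fragments against 14. At the authors' q-value limit, the lowest −log10 q among members was 3.01, for a peak of 8 fragments at the ends of VPS25 and WNK4. It was followed by peaks near ASL and inside HOXA3, each at 3.06 with 11 fragments.

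Most members of great pileup lay on a high background. Of the 18 members with 30 or more fragments, 15 lay on a local background of 5 or more fragments, a background that 23 of all 1042 members had, and 6 lay on chromosome 19. The peak with most fragments, 47 inside FCGBP, had a background of 15.7 and a fold enrichment of 2.88. A peak of 45 fragments near ZSWIM4 had a background of 19.2 and a fold enrichment of 2.28, the lowest of all members. Of the others, the peaks near TMEM216 and EIF1 and inside LRRC27 combined 31 to 34 fragments with a background under 5, and the member of highest fold enrichment, 12.8 near TMEM216, had 34 fragments on a background of 1.74.

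Position was not part of the rule. A peak was placed by its summit against 19974 protein-coding genes of RefSeq (GRCh38.p14), and a gene end means within 1000 bp of either annotated end. Of the members, 364 (34.9%, 32.0 to 37.9) lay at a gene end, 336 (32.2%) inside a gene away from its ends, 264 (25.3%) between genes within 50 kb of one, and 78 (7.49%) farther away. Shared inflachromene peaks lay at gene ends in 63.8% of cases and DMSO-only peaks in 36.3%. The windows at gene ends hold 2.39% of the bases considered. Seen from the other side, 5.51% (4.97 to 6.08) of inflachromene peaks at gene ends were members, against 15.2% inside genes, 17.3% between genes within 50 kb and 16.2% beyond.

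**Figure D3:**
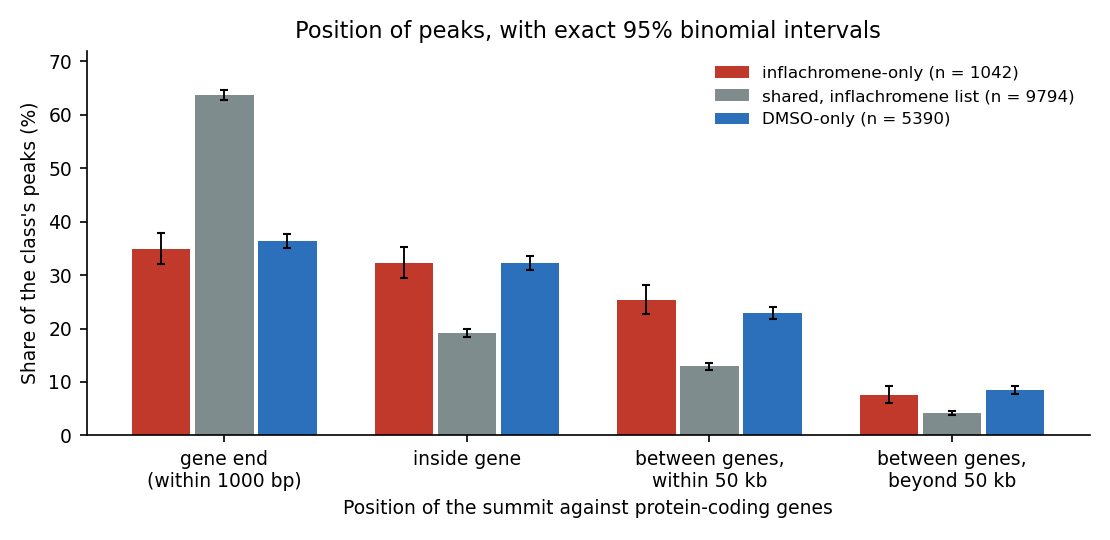
Share of peaks (percent) at protein-coding gene ends, inside genes, between genes within 50 kb and farther away, for members, shared inflachromene peaks and DMSO-only peaks, with exact 95% intervals for counting error. Members are at gene ends in 34.9% of cases, DMSO-only peaks in 36.3% and shared peaks in 63.8%.

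Strength differed little by place. The members' median fold enrichment was 5.67 at gene ends, 5.75 inside genes, 5.94 between genes within 50 kb and 6.03 farther away, with median widths of 220, 202, 202 and 203 bp. Among members, the strongest were placed much like the rest, with 31 of the top 100 by fold enrichment at gene ends. Of the top 20, 5 lay at a gene end, 7 inside genes, 5 between genes within 50 kb and 3 farther away, whereas 14 of the top 20 shared peaks and 10 of the top 20 DMSO-only peaks lay at gene ends.

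Starts could be told from other gene ends where the RefSeq promoter table used here had an entry, for 15813 genes (79.2%) and with chromosome 8 left out. Of the 364 members at a gene end, 94 had no start within 1000 bp in that table. Members at genes without an entry counted as having no start there, so the shares below may be too low. Of 1012 members on those chromosomes, 312 (30.8%) had the summit within 1000 bp of an annotated coding start and 253 (25%) within 300 bp. The median distance within 1000 bp was 88 bp, against 98 bp for shared and 76 bp for DMSO-only peaks. Upstream summits outnumbered downstream ones, at 20.3% and 10.4% of members. The upstream share was 51.4% among shared peaks, with 9.16% downstream, and 23.8% among DMSO-only peaks, with 9.31% downstream. In 42 members inside genes and away from the genes' outer ends the summit still lay within 1000 bp of an annotated coding start, such as that of a shorter transcript.

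The members at gene ends reached 423 protein-coding genes, 2.12% of all, and under those other rules 1029 and 1020. At 317 of these genes no shared or DMSO-only peak lay at an end, 69 also had a shared peak, and 37 had a DMSO-only peak and no shared one. At 61 places the same member lay at the ends of 2 or more genes, so that the peak cannot be assigned to 1 of them.

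Of the 12 strongest members at gene ends, 11 are described here. They lay upstream of annotated starts, from 14 bp (ZNF134) to 110 bp (FGF22) away, except for MIS18A, for which no start was matched. POLR2C, which encodes a core subunit of RNA polymerase II, had a member of 9.80-fold enrichment with 17 fragments (9.90 to 27.2) at chr16:57462549-57462749, 30 bp upstream of its start and 73.2 kb from the nearest DMSO peak. EDEM2, which encodes a protein of endoplasmic reticulum quality control, had 9.18-fold and 24 fragments (15.4 to 35.7). ZNF134, a zinc finger gene, had 9.10-fold and 21 fragments (13.0 to 32.1). UBE2K, a ubiquitin-conjugating enzyme gene, had 8.78-fold and 24 fragments (15.4 to 35.7), 58.7 kb from a DMSO peak.

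These peaks stood in different surroundings. The member shared by EBNA1BP2, a nucleolar protein gene, and CFAP57 had 9.06-fold enrichment and 23 fragments, but a DMSO-only peak of 14 fragments lay 81 bp away. The members at MIS18A, which acts at centromeres, and at SDAD1 had 14 fragments each, with fold enrichments of 8.59 and 8.36, and lay 114 and 157 kb from the nearest DMSO peak. FGF22, a growth factor gene, had 8.50-fold and 22 fragments. VPS8, a vesicle tethering gene, had 8.44-fold and 21. The last of the 12 were SPTBN4 with SHKBP1 (8.30-fold, 19 fragments) and ZNHIT3 (8.29-fold, 18 fragments), and the next member, at KANK3, had the same rounded fold enrichment.

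**Figure D4:**
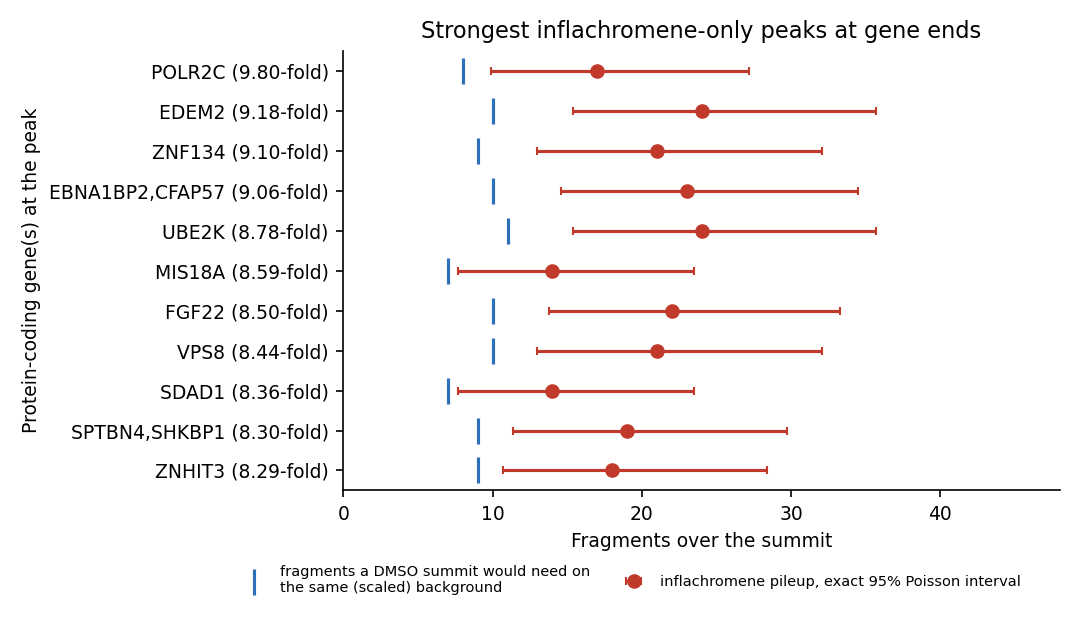
Number of fragments at the summit of 11 of the 12 members of highest fold enrichment at gene ends, with exact 95% Poisson intervals, and the number a DMSO summit would have needed on the same scaled background (bars). POLR2C stands at 17 fragments against a need of 8, and UBE2K at 24 against 11.

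Inside genes, the leading member lay in BSN, which encodes a scaffold of the presynaptic zone, with 12.5-fold enrichment and 27 fragments, 33.3 kb from its nearest end. RASA1, which encodes a GTPase-activating protein for RAS, had an intragenic member of 11.0-fold enrichment and 22 fragments, 32058 bp from its annotated start. LRRC27 had 10.3-fold and 33 fragments in a peak of 414 bp. The next were USHBP1 (10.2-fold, 24 fragments), ZNF407 (9.19-fold, 26), ARHGAP23 (9.14-fold, 17), LONRF3 (9.02-fold, 19) and ZNF331 (8.94-fold, 24).

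Between genes, the strongest member lay 1315 bp from the TMEM216 end, at chr11:61391252-61391434, with 12.8-fold enrichment and 34 fragments (23.5 to 47.5). TMEM216 encodes a protein of the base of the cilium. The nearest DMSO peak was 28.8 kb away. CARD10, 19.5 kb away from its member, followed with 10.8-fold and 29 fragments. The others were nearest to STX16 (9.78-fold), FOXI2 (9.69-fold), KRABD4 (9.65-fold), GJA3 (9.41-fold), GALNT18 (9.20-fold) and ASMT (9.01-fold), with 16 to 29 fragments.

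The widest members were of middling strength. The widest, 606 bp at the ends of RLN3 and IL27RA, had 5.30-fold enrichment. It was followed by peaks of 577 bp near ELF3, an epithelial transcription factor gene (5.91-fold), 558 bp at the ends of ZBED3 and PDE8B (6.71-fold), 554 bp inside SEPTIN9 (4.86-fold) and 510 bp inside MICAL3 (7.44-fold).

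Members also gathered in 7 runs of 3 or 4 with neighbouring summits within 50 kb. In IGF2BP2, an RNA-binding protein gene, 3 members lay within 28.6 kb with 5.97- to 6.29-fold enrichment and no other peak between them. A run over DHRS3 and AADACL4 on chromosome 1 and a run of 3 between PTK2 and DENND3 on chromosome 8 likewise held no other peak. The runs near NANOS3 and from ZNF628 to ZNF579, both on chromosome 19, held 4 members each, with shared and DMSO-only peaks among them. The NANOS3 run spread over backgrounds from 2.15 to 19.2. The remaining runs lay between UNC13D and TRIM47 on chromosome 17 and between HORMAD2, LIF and OSM on chromosome 22, the last 2 of these being cytokine genes.

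Distance to DMSO peaks is part of what the rule used and is given as a description. The median gap from a member to the nearest DMSO peak was 19202 bp (17137 to 21276), and from a DMSO-only peak to the nearest inflachromene peak 36974 bp. These gaps run to lists of unlike length, 15186 DMSO and 10836 inflachromene peaks, and are not directly comparable. Within 10 kb of a DMSO peak lay 360 members (34.5%, 31.7 to 37.5), and within 500 bp lay 97 (9.31%). Of those 97, 61 were next to a DMSO-only peak and 36 next to a shared one, and 52.6% lay at gene ends. The 682 members farther than 10 kb had a median fold enrichment of 6.07, with 32.7% at gene ends.

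By chromosome, the share of inflachromene peaks that were members ran from 5.66% on X (15 of 265; 3.20 to 9.16) and 6.81% on chromosome 20 to 14% on chromosome 18 and 15.9% on chromosome 21 (14 of 88; 8.98 to 25.2). Chromosomes 1 and 19 held most members, 94 and 91, and also most inflachromene peaks, 1192 and 898. Their shares were 7.89% (6.42 to 9.56) and 10.1%. The intervals of every chromosome except 1 and X hold the 9.62% of all, and the intervals of 1 and X lie below it.

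Of 18 gene lists with 385 different genes, 13 genes (3.38%) had a member at an end, against 2.12% of all protein-coding genes. These lists are rich in genes that have peaks at all: 54.8% of their genes had a shared peak at an end, against 36.4% of all. Among genes for the growth of cells, the DNA replication list held 1 of 34, FEN1, a flap endonuclease gene whose peak it shares with TMEM258 (6.08-fold, 21 fragments). The mitosis list held 2 of 30. These were NDC80, a kinetochore gene that shares its peak with METTL4 (7.58-fold, 16 fragments), and FOXM1, a cell-cycle transcription factor gene that shares its peak with RHNO1 (5.75-fold, 11). The MYC target and ribosome biogenesis list held 1 of 25, GNL3 with PBRM1 (6.80-fold, 16 fragments), 123 bp from a DMSO-only peak. The RNA polymerase II and Mediator list held POLR2C, 1 of 27.

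Signalling and stress lists gave counts of 0 to 2. The RAS-MAPK list held 2 of 25, among them PLAU, a secreted protease gene (4.82-fold, 28 fragments). The ubiquitin list held 2 of 23, UBE2K and UBE2D1 (4.96-fold, 10 fragments). The stress and unfolded protein list held EDEM2 (1 of 24), and the senescence and p53 list held RB1, a cell-cycle inhibitor gene (1 of 22; 6.48-fold, 13 fragments). The AP-1 list of 24, the YAP and TEAD list of 22, the mesenchymal list of 25, the cholesterol list of 21 and the high-mobility-group list of 16, which holds HMGB1 and HMGB2 and had shared peaks at 10 genes, had 0 members at an end. PCNA, ATF3, NR4A1, SPRED2, WWTR1, INSIG1 and UBE2R2 had a member inside the gene away from its outer ends. The PCNA and UBE2R2 summits still lay 519 and 526 bp from an annotated start of the same gene. These members lay 104 and 446 bp from a shared DMSO peak. The gap to the nearest DMSO peak was 1004 bp for INSIG1, 1959 for NR4A1, 5375 for WWTR1, 11965 for ATF3 and 45997 for SPRED2. POLR2C, EDEM2 and UBE2K were known from earlier results when the lists were written.

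Markers of the cell line gave 1 of 12 epithelial genes, KRT8, with a member at an end (4.38-fold, 21 fragments), 625 bp from a shared DMSO peak. That member also lay inside KRT18. Its summit was 57 bp from an outer KRT8 end and 23448 bp upstream of the nearest annotated KRT8 start. KRT7 had a member inside. Shared peaks lay at 3 of those 12 genes. Among markers of other cells, 1 of 14 immune genes had a member, CD14 (4.25-fold, 10 fragments), and the acinar and islet, the fibroblast and endothelial and the neuronal and liver lists, of 14 genes each, had 0. Peaks are not expression, so these counts describe positions and not which genes the cells transcribe.

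Away from coding gene ends, 62 members (5.95%) lay at an end of a long non-coding RNA gene, against 5.86% of shared and 6.49% of DMSO-only peaks. Transfer RNA genes, which RNA polymerase III reads, held 7 members (0.672%, against 1.23% of shared peaks). Of these, 6 lay on chromosome 6. The share of all transfer RNA genes on that chromosome was not counted here, so the 6 are not read as a trait of members. The highest fold enrichment was at TRS-AGA2-2 and TRD-GTC2-6, with 6.57-fold enrichment and 22 fragments, 46 bp from a DMSO peak. Small nuclear, micro- and small nucleolar RNA genes held 0.0960% of members each, against 0.347%, 0.337% and 0.0919% of shared peaks, and ribosomal RNA genes 0, against 0.133%. Small nuclear RNA genes held 1 member, at RNU6-7 and RNU6-8 (5.42-fold, 20 fragments), microRNA genes 1, at MIR301B (7.60-fold, 17 fragments), and small nucleolar RNA genes 1 (5.53-fold, 13 fragments).

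The promoters under members were compared with other promoters over windows of 300 bases, from 250 before to 50 after an annotated start. A window counted when it held the summit, which gave 236 windows of 225 genes for members, 5768 for shared peaks, 1427 for DMSO-only peaks and 22132 in all. GC content was much the same, at medians of 65.8% in members, 66.3% in shared and 67.3% in DMSO-only windows, against 62.3% in all. The members' windows held 9.17 CpG pairs per 100 bases, against 9.33, 9.33 and 7.0.

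In percentage points, the NF-Y box differed most between members and shared peaks. CCAAT on either strand was found in 27.5% (21.9 to 33.7) of member windows, in 46.7% of shared windows, in 30.3% of DMSO-only windows and in 34.6% of all. NRF1 was found in 8.90% (5.59 to 13.3) of member windows and 15.2% of shared windows, and ETS (CCGGAAG) in 18.2% (13.5 to 23.7) and 25.2%. The SP/KLF letters (GGGCGG) were found in 73.7%, 79.3%, 76.4% and 56.3% of member, shared, DMSO-only and all windows. For these 4 motifs the members' interval held the DMSO-only share and excluded the shared share, narrowly for SP/KLF (67.6 to 79.2). It also excluded the share of all windows for NF-Y, SP/KLF and ETS (12.8%). For NRF1 it held the 7.41% of all windows.

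For the other 7 motifs members and shared peaks differed by fewer percentage points. AP-1 (TGANTCA) was found in 5.08% (2.65 to 8.71) of member windows, 3.35% of shared and 6.15% of all windows. The TATA box (TATAAA) was found in 5.93% of member and 3.69% of shared windows, and E-boxes (CACGTG) in 12.7% and 11.7%. CRE (TGACGTCA) reached 4.24% and 4.28%, YY1 2.97% and 3.87%, TEAD (GGAATG) 10.6% and 8.74%, and E2F (GCGGGAA) 10.2% and 12%. The members' intervals hold the shared share for all 7. For the TATA box the interval (3.28 to 9.75) excludes the DMSO-only share of 3.08% but holds the 9.46% of all windows. The DMSO-only interval (2.25 to 4.12) overlaps that of members. For the E-box the members' interval (8.74 to 17.6) excludes the 8.34% of all windows. These exclusions, and those of the 4 motifs above, were read among many such comparisons and were not tested.

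**Figure D5:**
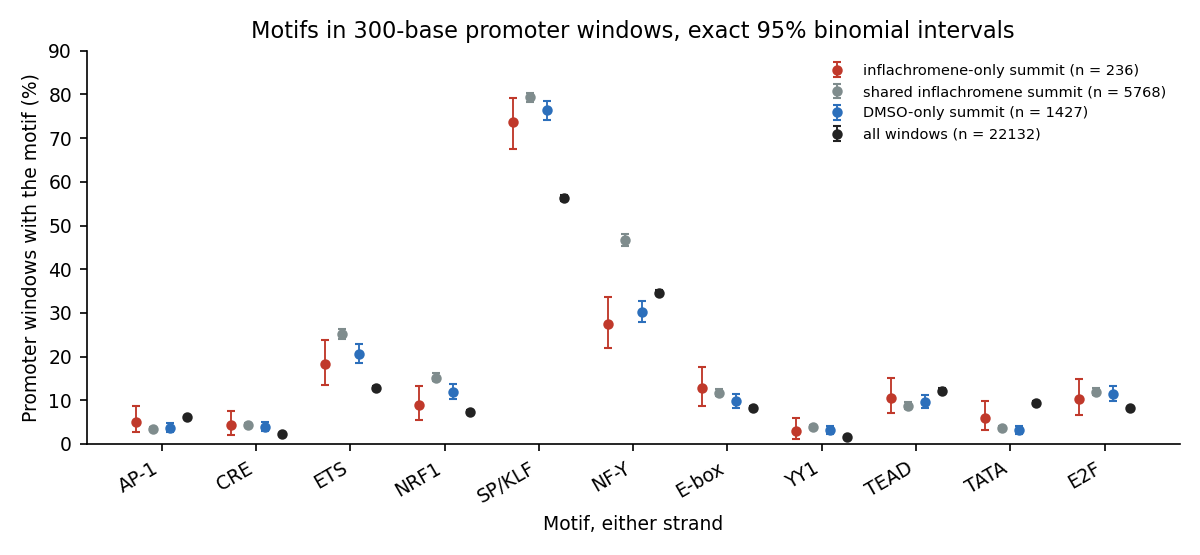
Share of 300-base promoter windows (percent) that hold each motif on either strand, for windows with the summit of a member, a shared inflachromene peak or a DMSO-only peak and for all windows, with exact 95% intervals for counting error. NF-Y stands at 27.5% in member windows and 46.7% in shared windows.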

How the data were processed

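Peaks of 2 ChIPmentation libraries, 1 per treatment, were analysed as deposited. The hg38 build, MACS2 and deepTools 3.5.6 were named, per the submitters' processing notes. The aligner, the MACS2 version, the handling of duplicates and any pooling were not given in the sources used here. Per the file layout, the authors' deposited rows hold a position, a score (not used), fold enrichment, and −log10 p-value and −log10 q-value. Fold enrichment was read as a ratio of pileup to background, with the same small constant added to both. The lists reach down to a q-value of about 0.001.

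From these, pileup and background were recovered with the caller's formulas (a whole pileup matching the deposited −log10 p within 0.001), for all 1042 members; this and the overlap step were tested on simulated data and gave 2000 of 2000 pileups and 2587 of 2587 overlaps. The formulas were taken from MACS2 and not stated by the authors. No control library was used here. Total depth is unknown from these values, and background bottomed out at 0.651 (DMSO) and 0.683 (inflachromene) fragments per base. Genes and promoters came from RefSeq tables (GRCh38.p14, whose chromosomes match hg38), whose promoter table had no entries on chromosome 8.

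Shares carry exact Clopper-Pearson 95% intervals, pileups exact Poisson intervals and medians order-statistic intervals, for counting error only. No test was made. Python 3.11.15, numpy 2.4.6, pandas 2.3.3, SciPy 1.17.1 and matplotlib 3.10.9 were used.

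Named peaks were the 12 of highest fold enrichment at gene ends (1 of them is not reported here), the 8 inside genes, the 8 between genes, the 5 widest, runs of 3 or more within 50 kb, genes of the lists with a member at an end, the 2 nearest the overlap limit on each side, the 3 of lowest q and peaks at ends of non-coding RNA genes. Peaks named for the greatest pileup, and the families under other observations, were chosen after their values were seen. The members and lists were chosen with earlier results of these data known. Alternatives changed the overlap rule, the q limits, the list length and the distances.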

Additional observations from a re-analysis of the deposited data

How the results depend on the processing

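Of 51 alternative values, 24 stayed within the interval of the reported value (counts within 1.5 times) and 27 moved. Asking for a 50% reciprocal overlap gave 1910 members (17.6% of peaks), 1020 genes, a median fold enrichment of 6.0, a median width of 219 bp, 46.8% at gene ends and 64.3% within 10 kb of a DMSO peak. Using as many DMSO peaks as inflachromene peaks, those of lowest p-value, gave 2210 members (20.4%), 1029 genes, 5.95-fold, 222 bp, 40.1% at gene ends and 23.1% within 10 kb. With summits within 250 bp counted as shared the values were 12% of peaks, 219 bp, 39.8% at gene ends and 47.6% within 10 kb. A DMSO peak within 500 bp counted as shared left 8.72% of peaks and 27.8% within 10 kb. A −log10 q of 5 or more in DMSO gave 10.4% of peaks, and in inflachromene 8.20% and 6.12-fold. Gene-end windows of 2500 and 500 bp gave 41.2% and 28.3%, and distances of 5 and 50 kb gave 22.1% and 72.8%. The shares within 10 kb follow in part from each rule. Under the 50% and summit rules, members that still overlapped a DMSO peak counted as within 10 kb. The 500 bp rule took out the closest members. With the shortened DMSO list, distances were measured to that list alone. No paired analysis was possible because each treatment had 1 sample.

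The number of members thus rests on the length of the DMSO list and on the overlap rule. The lists give calls and not coverage, so a member does not show fewer fragments in DMSO. Replicate spread and the DMSO coverage under members were not analysed here, and the chosen lists are not independent of earlier results.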

Other observations

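Gene families were counted by symbol, after values had been seen. A member at the ends of 2 or more genes was counted for each, as at TRIM47 and TRIM65, so genes are not separate peaks. The share over all genes was counted in the same way. Among 509 genes whose symbol is ZNF and a number, 17 (3.34%) had a member at an end, among them ZNF134, ZNF665 (7.70-fold, 27 fragments) and ZNF227 (7.38-fold, 15). Of 77 mitochondrial ribosomal protein genes, 6 (7.79%) had one, led by MRPS15 (8.17-fold, 18 fragments) and MRPS22 (7.32-fold, 17). Of 67 TRIM genes, 6 (8.96%) had one, and the shared ends of TRIM23, TRAPPC13 and SHLD3 held 2 members (7.94-fold with 17 fragments and 7.52-fold with 16). Of 74 histone genes, 5 (6.76%) had one, led by H3C6 (7.83-fold, 15 fragments). Of 386 SLC genes, which encode membrane transporters, 7 (1.81%) had one. The share over all genes was 2.12%, and most members of these families that have a peak have a shared one: 248 ZNF, 44 mitochondrial ribosomal, 19 TRIM, 48 histone and 123 SLC genes.

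Some other genes with a member at an end were picked by eye after values had been seen, and no theme is drawn from them. They were JAK2, a cytokine receptor kinase gene (6.78-fold, 11 fragments, 95 bp from a DMSO peak), RIGI, an RNA sensor gene (6.48-fold, 16), SOCS1, a feedback inhibitor gene (5.67-fold, 22), and RELA, an NF-kappaB subunit gene (5.21-fold, 23). MNAT1 (7.97-fold, 17 fragments), MED4 (7.72-fold, 12) and MED6 (5.25-fold, 10) had one as well. By symbol, 2 of 30 MED genes (6.67%) had a member at an end.

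On sequences other than chromosomes 1 to 22 and X, 31 of 155 inflachromene peaks (20%) overlapped no DMSO peak, on 18 sequence names, and 49 of 168 DMSO peaks (29.2%) overlapped no inflachromene peak.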
